A study of Mus musculus with 10 samples.

Results

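The mouse immunoglobulin kappa locus on chromosome 6 holds V segments that lie far from the kappa J segments (distal) and V segments that lie near them (proximal). This account covers 80 of the 162 RefSeq Igkv segments: all proximal ones, running from Igkv4-72 at the far end to Igkv3-1 beside the J segments, except Igkv6-32, Igkv8-30 and Igkv8-34. A translocation junction was taken as a junction of these segments when it lay within 500 bp of one. The 10 libraries held 547 such junctions among 68433 in all and among 2910 within 500 bp of any Igkv segment. Of the rest, 687 lay at Igkv6-32, Igkv8-30 and Igkv8-34 and 1676 at the 79 distal segments. At the edge of the 500 bp rule, 17 junctions lay 400 to 500 bp from a segment and counted, while 18 lay 500 to 600 bp away and did not. Only 1 junction lay within 500 bp of 2 segments.

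The junctions came from Abelson-transformed pre-B cells of C57BL/6 mice lacking DNA ligase IV (LIG4-/-), assayed by high-throughput genome-wide translocation sequencing, which amplifies from one known break and reads what was joined to it. In every library the cells had been arrested in G1 with imatinib for 48 h, and a zinc finger nuclease (ZFN) induced with 1 µg/ml doxycycline from 24 h of imatinib cut the bait site, also on chromosome 6. Etoposide (50 µM for 2.5 h, then 12 h without it) was given alone in 2 libraries, with IFN in 1 and after DRB in 1. IFN alone and DRB alone had 1 library each. AsiSI was induced in 1 library after DRB and in 1 without it, with 1 µM tamoxifen 20 h after doxycycline. DRB was given 2 h ahead of the breaks. The untreated group, with the nuclease and no other break or drug, had 2 libraries. Etoposide traps topoisomerase II on cut DNA, AsiSI is a rare-cutting endonuclease, and DRB blocks transcription elongation. The labels give IFN only by that abbreviation. They name no clone and do not say that replicates came from separate cultures, so p-values between libraries measure a spread that may be technical.

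Kappa genes are assembled by the RAG recombinase, which Abelson cells are known to switch on when imatinib arrests them. RAG cuts between a V segment and its recombination signal sequence (RSS), which for kappa V segments is a heptamer, a 12-base spacer and a nonamer. The cut leaves a coding end, which carries the V segment, and a signal end, which carries the RSS. Either end can be joined to another break, and without ligase IV the joining passes to pathways that tend to trim ends and use short homologies.

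The windows below show the end of the segment and its RSS for 8 of the 12 most used segments, because the results turn on this border and because some of them are near copies of one another. Each gives the mm10 bases that deposited reads matched, 5′ to 3′ on the segment's own strand. It holds the last 60 bases of the segment, the 28-base RSS and 40 bases beyond. Capitals mark the heptamer and nonamer positions, and n marks a base at which no read matched mm10, whether uncovered or mismatched.
Igkv8-27: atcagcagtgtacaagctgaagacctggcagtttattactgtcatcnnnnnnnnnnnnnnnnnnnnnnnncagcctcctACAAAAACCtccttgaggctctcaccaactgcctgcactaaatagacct
Igkv6-25: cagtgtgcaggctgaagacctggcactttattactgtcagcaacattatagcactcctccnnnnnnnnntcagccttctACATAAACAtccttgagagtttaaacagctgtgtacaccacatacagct
Igkv4-51: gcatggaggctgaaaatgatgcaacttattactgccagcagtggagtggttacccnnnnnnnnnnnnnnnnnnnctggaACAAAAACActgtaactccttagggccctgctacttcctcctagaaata
Igkv8-21: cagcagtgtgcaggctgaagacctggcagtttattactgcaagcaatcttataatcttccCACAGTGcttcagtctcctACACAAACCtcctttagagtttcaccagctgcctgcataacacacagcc
Igkv8-23-1: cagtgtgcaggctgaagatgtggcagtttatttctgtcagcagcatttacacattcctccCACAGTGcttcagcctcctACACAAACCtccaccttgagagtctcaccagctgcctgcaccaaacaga
Igkv8-16: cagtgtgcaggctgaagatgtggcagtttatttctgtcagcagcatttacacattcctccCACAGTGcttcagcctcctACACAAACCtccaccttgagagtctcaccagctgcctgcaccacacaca
Igkv8-24: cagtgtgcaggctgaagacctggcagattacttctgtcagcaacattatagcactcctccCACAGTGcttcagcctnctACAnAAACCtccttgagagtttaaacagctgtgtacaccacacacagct
Igkv6-17: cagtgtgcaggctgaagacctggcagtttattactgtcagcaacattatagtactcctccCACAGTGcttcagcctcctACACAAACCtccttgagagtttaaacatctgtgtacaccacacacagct
These windows lie at chr6:70171741-70171868 (Igkv8-27, minus strand), chr6:70215898-70216025 (Igkv6-25, plus strand), chr6:69681338-69681465 (Igkv4-51, minus strand), chr6:70314827-70314954 (Igkv8-21, minus strand), chr6:70240359-70240486 (Igkv8-23-1, minus strand), chr6:70386604-70386731 (Igkv8-16, minus strand), chr6:70216790-70216917 (Igkv8-24, minus strand) and chr6:70371934-70372061 (Igkv6-17, plus strand). Where fully read, the heptamer was CACAGTG in each of them. Igkv8-23-1 and Igkv8-16 had the same base at 126 of 128 positions, and Igkv8-24 and Igkv6-17 at 121 of the 126 read in both. Windows were compared position by position with no gaps, so a shifted stretch counts as different. Only 3 of the 547 prey sequences also occurred whole in the reads of another segment that was not a close neighbour. This is a lower bound, since not every segment was read end to end and close neighbours were not checked. Among these neighbours are Igkv6-25 and Igkv8-24, which had the same base at 111 of the 117 positions read in both.

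Segment strand was read from the junction sequences, since the RefSeq table used gives none. The RSS was found in reads of 17 proximal segments, in each case directly after the annotated last base, and 29 more took their strand from sequence shared with segments of known strand. When each of 48 Igkv segments with a read RSS was called from shared sequence alone, 47 were called and all 47 calls were the same as from the RSS. Of the proximal segments 36 were on the minus strand and 10 on the plus strand. The other 34 had no strand, and 12 of those were used, by 16 junctions. The plus-strand segments were Igkv6-25, Igkv6-17 and 8 Igkv3 segments next to the J segments.

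Use was concentrated on few segments. Igkv8-27 had 82 junctions and Igkv6-25 had 71, together 153 of the 547, and these were followed by Igkv4-51 with 34, Igkv8-21 with 31 and Igkv8-23-1 with 30. Igkv8-24 had 24, Igkv6-17 had 23, Igkv3-10 had 20, Igkv3-7 had 18, Igkv8-16 had 16, Igkv12-44 had 15 and Igkv4-58 had 13. These 12 segments held 377 junctions (68.9%). A further 15 segments had 5 to 10 junctions, 31 had 1 to 4, and 22 had none. A count of 0 among 2910 kappa V junctions allows a share of up to about 0.103% (taken as 3 of 2910), for counting error only. Each of the 3 proximal segments left out here had more than any of the 80, the least used of them 150.

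Position along the locus and use were unevenly matched. Igkv8-27, Igkv6-25, Igkv8-24 and Igkv8-23-1 lie within 68.9 kb (chr6:70171809-70240710, from the first base of Igkv8-27 to the last of Igkv8-23-1) and held 207 junctions (37.8%). The stretch holds 5 segments, and the remaining one had 0. The 46 segments below position 70 Mb held 165 junctions (30.2%), 34 of them at Igkv4-51 (chr6:69681406-69681939). At the 2 ends, Igkv4-72 had 3 junctions and Igkv3-1 had 7.

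**Figure D1:**
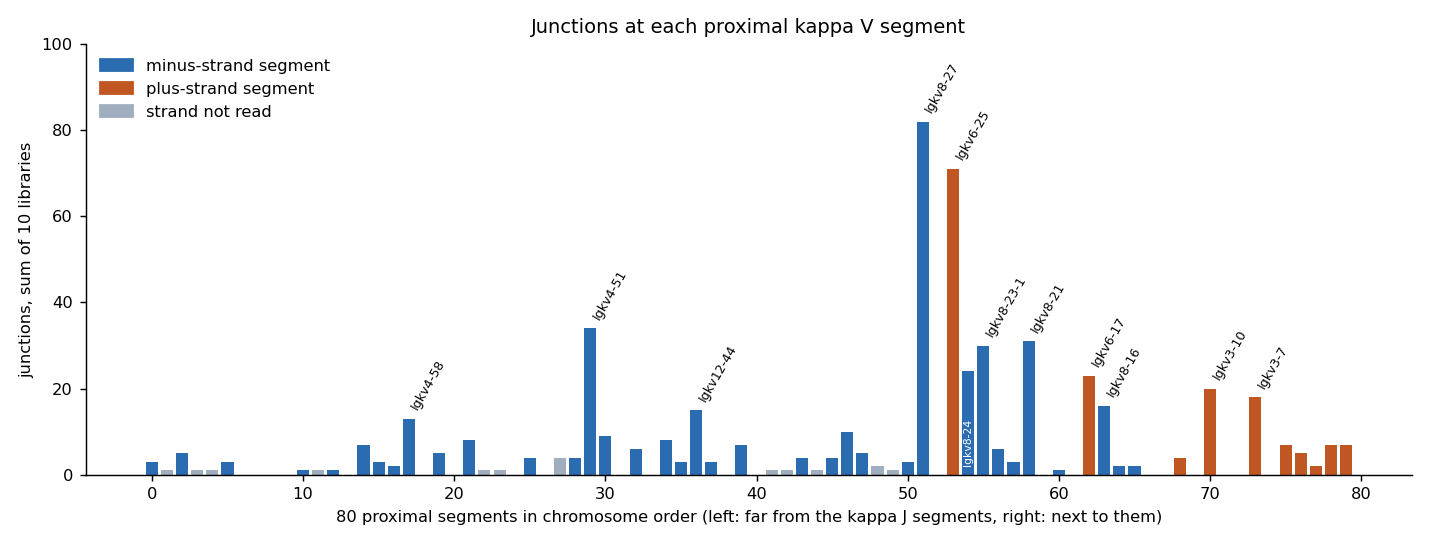
Junctions at each of the 80 proximal segments, summed over 10 libraries (y axis, number of junctions), with segments in chromosome order on the x axis and bars coloured by segment strand. Igkv8-27 (82) and Igkv6-25 (71) stand above all others, and the plus-strand segments other than Igkv6-25 and Igkv6-17 lie at the right end.

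RefSeq lists 56 of the 80 as V segments and 24 as V segment pseudogenes. Segments not listed as pseudogenes held 537 of the 547 junctions, with a median of 4 per segment, and 51 of 56 were used. Of the pseudogenes, 7 were used, by 10 junctions, and none had more than 3. The 5 segments with none that are not listed as pseudogenes were in families Igkv3, Igkv6 and Igkv8. The other 17 unused segments were pseudogenes. The 36 distal pseudogenes, by comparison, held 352 junctions, 230 of them at 1 segment.

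Among families, Igkv8 was used most, with 192 junctions (35.1%) at 11 segments, 9 of them used. Igkv4 followed with 109 junctions (19.9%), spread over 19 of its 20 segments, so its mean of 5.45 junctions per segment was below the 17.5 of Igkv8. Igkv6 had 105 junctions at 8 segments, of which Igkv6-25 held 71. Igkv3, the family nearest the J segments, had 70 junctions at 8 of its 13 segments. Igkv12 had 35 at 5 of 10 segments, and Igkv5 had 14, of which its most used segment, Igkv5-48, had 6. All 9 Igkv13 segments are pseudogenes, and 3 of them, among them Igkv13-56-1, had 1 junction each. The families with a single proximal segment had 10 (Igkv1), 5 (Igkv7) and 4 (Igkv18).

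Totals for a whole library ranged from 2044 to 13425 junctions, and those at the 80 segments from 11 to 171, so single-segment counts were small in most libraries. Igkv8-27 had 2 and 3 junctions with etoposide, 3 with IFN and etoposide, 2 with DRB and etoposide, 8 with IFN, 2 with DRB, 26 with DRB and AsiSI, 23 with AsiSI and 2 and 11 in untreated cells. It was used in every library, and its share of the 80 segments' junctions ran from 6.90% (2 of 29, untreated replicate 1) to 20.4% (23 of 113, AsiSI). The exact 95% intervals of those 2 shares, 0.846% to 22.8% and 13.4% to 29.0%, overlap.

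Igkv6-25 had 3 and 5 junctions with etoposide, 5 with IFN and etoposide, 0 with DRB and etoposide, 8 with IFN, 4 with DRB, 19 with DRB and AsiSI, 15 with AsiSI and 5 and 7 in untreated cells. The library with none had 11 junctions at the 80 segments in all, which allows a share of up to 27.3%. Igkv4-51 had 0 and 2 with etoposide, 1 each with IFN and etoposide, with DRB and etoposide and with IFN, 3 with DRB, 13 with DRB and AsiSI, 10 with AsiSI and 1 and 2 in untreated cells. Both AsiSI libraries, which had the most junctions at the 80 segments, thus gave 23 of its 34. Igkv8-21 was the other segment seen in all 10 libraries, with 1 to 9 junctions in each.

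**Figure D2:**
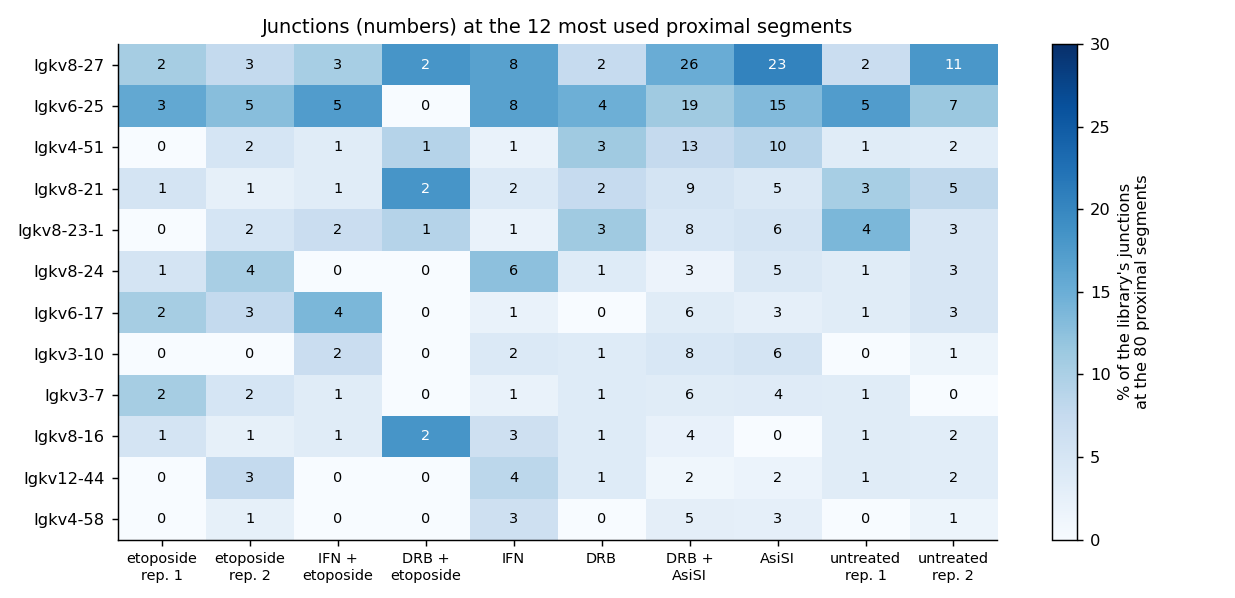
Junctions (numbers in the cells) at the 12 most used segments (rows) in each of the 10 libraries (columns), shaded by the share of that library's junctions at the 80 proximal segments. Igkv8-27 and Igkv6-25 lead in the libraries with the most junctions at the 80 segments, and most cells of the other rows hold fewer than 10 junctions.

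Whether the 80 segments took more or less of the kappa V junctions after treatment was asked first. They held 17.8% (19 of 107) and 18.6% (39 of 210) with etoposide, 17.5% (29 of 166) with IFN and etoposide and 11.8% (11 of 93) with DRB and etoposide. The share was 22.9% (48 of 210) with IFN, 17.6% (27 of 153) with DRB, 20.4% (171 of 840) with DRB and AsiSI and 17.5% (113 of 647) with AsiSI. In untreated cells it was 21.8% (29 of 133) and 17.4% (61 of 351). The lowest share, with DRB and etoposide, came from the fewest junctions, with an exact 95% interval of 6.05% to 20.2%.

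**Figure D3:**
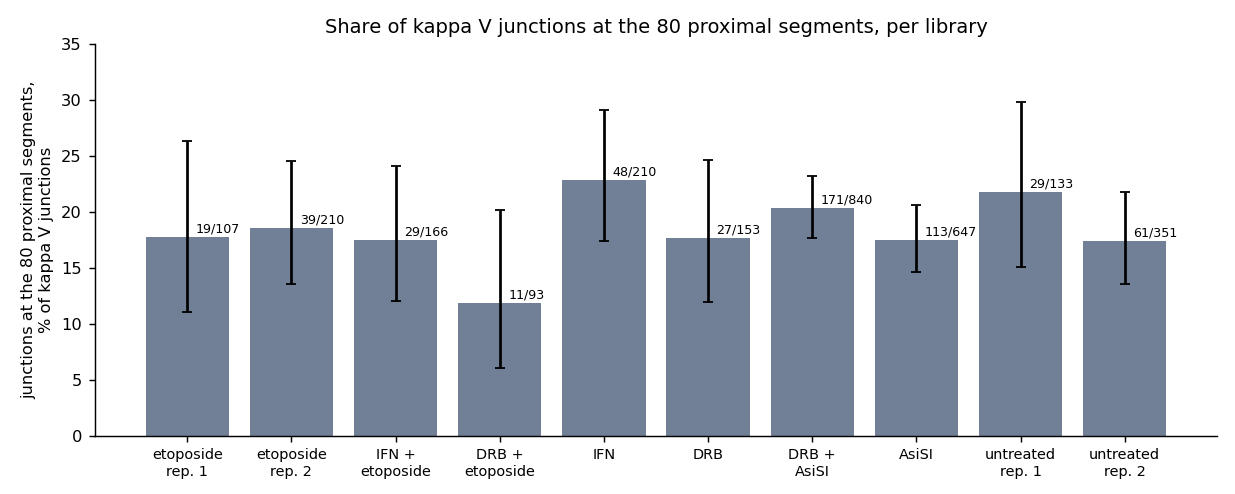
Share of kappa V junctions that lay at the 80 proximal segments (y axis, percent) in each library, with exact 95% binomial intervals and the counts beside each bar. The shares run from 11.8% to 22.9%, and the intervals of all 10 libraries overlap.

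The mean share was 18.2 ± 0.576% with etoposide and 19.6 ± 3.13% in untreated cells (SD, n = 2 each). The difference of -1.43 percentage points was smaller than the spread between untreated libraries (exact permutation test, two-sided p = 1.0, where 2 against 2 cannot go below 0.33). It was -4.05 between the libraries numbered 1 and 1.19 between those numbered 2. Per 1000 junctions within 1 Mb of the bait break, the 80 segments had 12.8 ± 4.34 with etoposide and 18.7 ± 10.1 in untreated cells (SD, n = 2 each; exact permutation p = 0.667). In 13 pairs of single libraries compared with Fisher's exact test, none passed an adjusted p of 0.05 or an unadjusted one, and the lowest adjusted p was 0.596. That test covers counting error only. The lowest p was for IFN at 22.9% against untreated replicate 2 at 17.4% (odds ratio 1.41, 95% interval 0.922 to 2.15, Fisher's exact p = 0.123).

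For single segments, limma with voom weights compared etoposide with untreated libraries over the 17 Igkv segments with at least 10 junctions in those 4 libraries. It called 0 of 17 (0%) at an adjusted p of 0.05, and none at an unadjusted 0.05. Only 3 of the 80 proximal segments had enough junctions to enter. Igkv8-21 had 1 and 1 junctions with etoposide, against 3 and 5 in untreated cells. These raw counts, not scaled to library depth, did not overlap between the groups. The log2 fold change was -1.22 ± 0.66 (SE), with adjusted p = 0.922 by limma. Such separation was not particular to Igkv8-21. Raw counts also did not overlap at several of the 17 tested segments that lie outside the 80, and most of these were lower with etoposide. Kappa V junctions in all numbered 107 and 210 with etoposide and 133 and 351 in untreated cells, and raw counts are not scaled for this. Igkv6-25 had 3 and 5 with etoposide and 5 and 7 in untreated cells, with a log2 fold change of -0.19 ± 0.62 (SE; limma adjusted p = 0.937). Igkv8-27, with 2 and 3 against 2 and 11, gave -0.13 ± 0.60 (SE; limma adjusted p = 0.937). The median log2 fold change was -0.19 over these 3 and -0.05 over all 17.

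Fisher's exact test per segment called Igkv segments in 2 of the 13 pairs. AsiSI against untreated replicate 1 gave 5 of 80 segments tested (6.25%), and AsiSI against untreated replicate 2 gave 6 of 88 (6.82%). None of these was a proximal segment of the 80 described here, and the other 11 pairs had no call (0%).

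One family was set apart after its values were seen. Igkv3 held 15.8% (3 of 19) and 15.4% (6 of 39) of the 80 segments' junctions with etoposide, 13.8% (4 of 29) with IFN and etoposide and 0 of 11 with DRB and etoposide. It held 8.33% (4 of 48) with IFN, 14.8% (4 of 27) with DRB, 17.0% (29 of 171) with DRB and AsiSI, 14.2% (16 of 113) with AsiSI, and 6.90% (2 of 29) and 3.28% (2 of 61) in untreated cells. The etoposide libraries lay above the untreated ones, by 10.5 percentage points on average (exact permutation p = 0.33, the lowest that 2 against 2 allow). With 2 to 6 junctions in each of those 4 libraries the exact intervals overlapped. Igkv3 was not alone in such a separation. Igkv8 held 26.3% and 30.8% with etoposide against 37.9% and 44.3% in untreated cells, and Igkv5 held 0% and 0% against 3.45% and 4.92%. Values of the other families overlapped or were equal.

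Each junction file gives the strand on which the prey was read outward from the joint. The bait was read on the plus strand throughout, so a plus-strand prey has the orientation of a deletion between the bait break and the segment on 1 chromosome copy, and a minus-strand prey that of an inversion. Over the 80 segments, 273 preys were plus and 274 minus. Set against segment strand, a prey on the segment's own strand reads in the direction of the RSS and was called a signal-end junction. One on the opposite strand reads in the direction of the segment and was called a coding-end junction. The call used strand alone, wherever within 500 bp the junction lay, so it does not show that RAG made the end. Minus-strand segments had 210 plus and 157 minus preys, and plus-strand segments 52 plus and 112 minus. In both classes the preys opposite to the segment's strand, the coding ends, were the more numerous. Strand calls from shared sequence need reads of the segment body, which coding ends supply, so these counts can overstate that excess.

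Of the 531 junctions at segments of known strand, 209 were signal-end and 322 coding-end, a signal-end share of 39.4% (exact 95% interval 35.2% to 43.7%). The pooled share was 49.2% at Igkv6-32, Igkv8-30 and Igkv8-34 and 41.6% at the distal segments. Calls from shared sequence need reads of the segment body, which coding-end junctions supply, so this rule can lower the signal-end share. Over libraries, the share at the 80 segments averaged 37.3 ± 13.3% and that at all other Igkv segments 42.2 ± 5.06% (SD, n = 10 each). It was lower at the 80 segments in 8 of 10 libraries, with a mean difference of -4.82 percentage points that did not pass (exact sign-flip permutation test, two-sided p = 0.205). Over segments whose RSS was read, the means were 41.5% and 42.3% (p = 0.803, exact permutation test). Reading an RSS needs preys that cover it, which signal-end junctions supply, so this choice of segments can raise the share. It therefore does not decide whether the gap is real.

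Segments differed in this share. Igkv8-27 had 44 signal-end and 38 coding-end junctions, and Igkv8-23-1 had 20 and 10. Igkv6-25 had 26 and 45, Igkv4-51 had 11 and 23, Igkv8-21 had 10 and 21, and Igkv8-24 had 6 and 18. Igkv8-16, the near copy of Igkv8-23-1, had 8 and 8. Igkv3-7, whose RSS was not read, had 2 signal-end and 16 coding-end junctions. By family the signal-end share was 48.4% for Igkv8, 50.0% for Igkv12, 36.5% for Igkv6, 29.4% for Igkv4 and 24.3% for Igkv3. Most Igkv4 and Igkv3 segments with a strand took it from shared sequence, a rule that can lower their shares. Plus-strand segments had 31.7% (52 of 164) and minus-strand segments 42.8% (157 of 367). In the 9 libraries with both, the means were 32.4% and 39.2% (difference -6.73 percentage points, lower in 7 of 9, exact sign-flip permutation p = 0.0703).

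The signal-end share of the 80 segments varied widely between libraries. It was 21.1% and 56.4% with etoposide, 31.0% with IFN and etoposide, 44.4% with DRB and etoposide, 39.6% with IFN and 25.9% with DRB. It was 39.3% with DRB and AsiSI, 36.4% with AsiSI, and 20.7% and 58.6% in untreated cells. The replicates of each group stood further apart than the groups. The mean was 38.7 ± 25% with etoposide and 39.7 ± 26.8% in untreated cells (SD, n = 2 each; difference -0.924 percentage points, exact permutation p = 1.0). Both replicate 1 libraries came from 1 sequencing run, in which prey alignments at Igkv segments had a median of 246 bp (etoposide) and 260 bp (untreated), against 68 to 86 bp in the other libraries. The part of this difference in the shares was not tested.

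**Figure D4:**
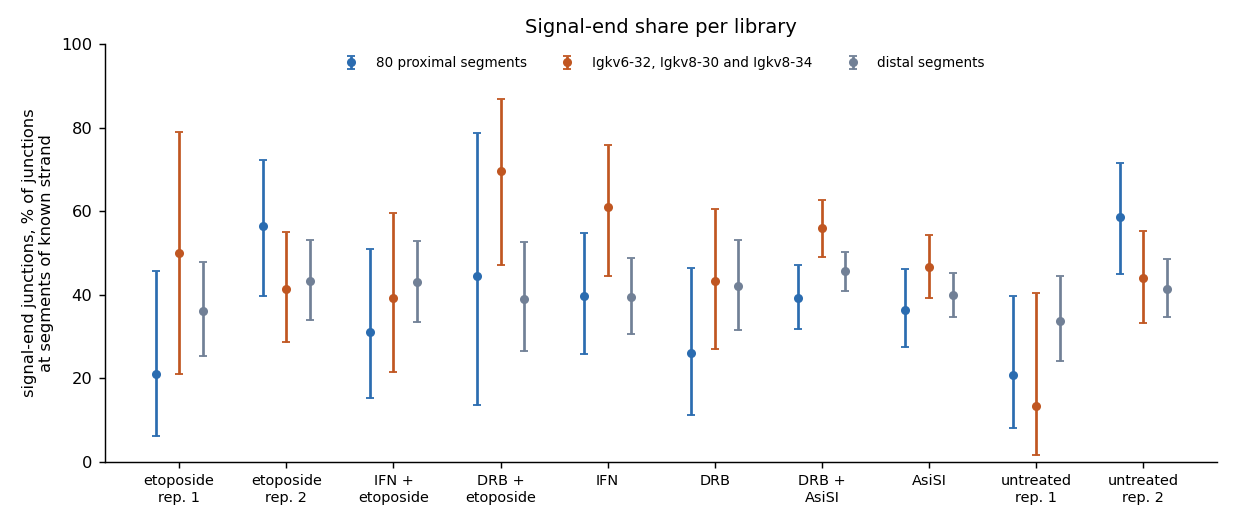
Signal-end share of junctions at segments of known strand (y axis, percent) per library, with exact 95% binomial intervals, for the 80 proximal segments, for Igkv6-32, Igkv8-30 and Igkv8-34, and for the distal segments. The 80 segments run from 20.7% to 58.6%, and Igkv6-32, Igkv8-30 and Igkv8-34 run wider, from 13.3% to 69.6%. The distal segments, which had the most junctions, run from 33.7% to 45.6%.

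Of the same 13 pairs of single libraries, none passed for signal-end against coding-end junctions after adjustment. The lowest p-values were for DRB, 25.9% (7 of 27), against untreated replicate 2, 58.6% (34 of 58), with an odds ratio of 0.247 (95% interval 0.0903 to 0.676, Fisher's exact p = 0.00572, adjusted 0.0562). AsiSI at 36.4% (40 of 110) against the same library had an odds ratio of 0.403 (0.21 to 0.774, Fisher's exact p = 0.00865, adjusted 0.0562). With junctions of the same position and strand counted once, both had an adjusted p of 0.0372. Both rest on untreated replicate 2, since untreated replicate 1 had 20.7% (6 of 29), and AsiSI was above that library.

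Most coding ends lay inside the segment and most signal ends beyond it. Of the 322 coding-end junctions, 219 lay 0 to 150 bases inside the segment, with a median loss of 36 bases (quartiles 22.5 and 53). Another 35 lay on the RSS side of the border, and 68 lay more than 150 bases from it on the segment side. Of the 209 signal-end junctions, 141 lay 0 to 150 bases beyond the cut, with a median loss of 31 bases (quartiles 19 and 49). In 85 of those 141 the whole 28-base RSS was lost. Of the other signal-end junctions, 40 lay on the segment side of the border and 28 more than 150 bases beyond it. Junctions on the unexpected side of the border, of either class, stayed in the shares above. Taking the median of each library, coding ends lost 38.1 bases and signal ends 32.6 (means over 10 libraries), and coding ends lost more in 9 of 10, although the difference did not pass (exact sign-flip permutation p = 0.105). At single segments the signal-end median was 30 bases at Igkv8-27 and 18 at Igkv6-25, and the coding-end median 36 and 41.

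**Figure D5:**
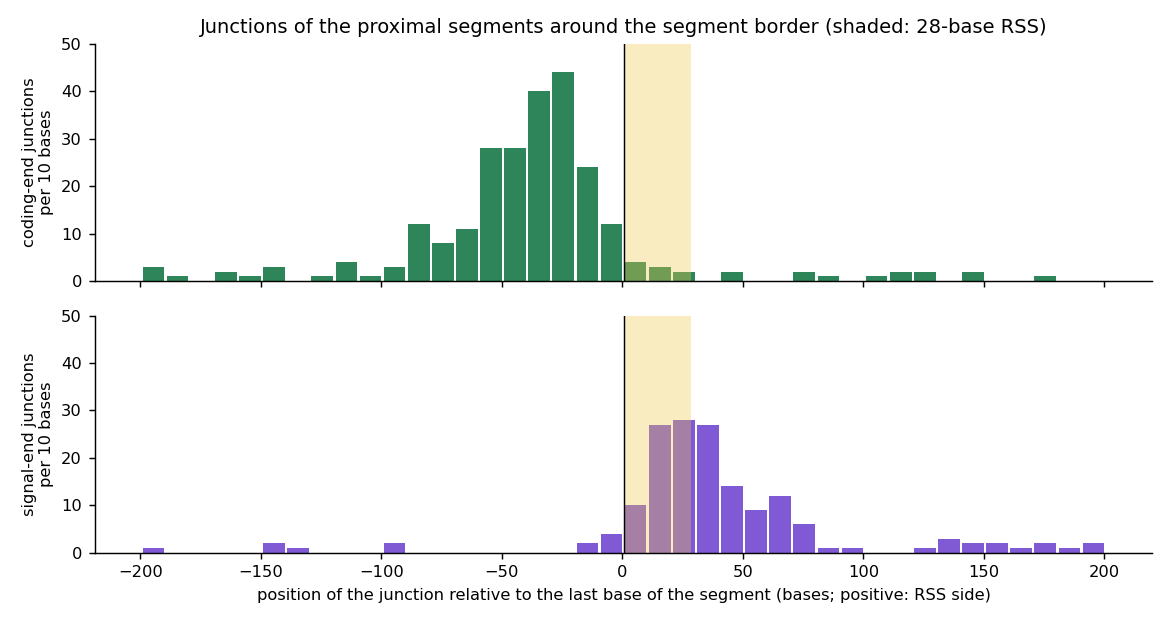
Coding-end (upper panel) and signal-end (lower panel) junctions of the 80 segments per 10 bases (y axes), by position relative to the last base of the segment (x axis, bases, positive on the RSS side). Coding ends peak in the bin from -29 to -20 with 44 junctions, and signal ends hold 27 or 28 in each bin between 11 and 40 bases beyond it.

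Joints exactly at the border were rare. Of the 531 junctions, 33 (6.21%) lay within 10 bp of it and 367 (69.1%) within 100 bp. Per library, the share within 10 bp averaged 7.75% at the 80 segments and 3.45% at all other Igkv segments. It was higher at the 80 segments in 8 of 10 libraries, by 4.31 percentage points (exact sign-flip permutation test, two-sided p = 0.0156, or 0.0967 after Benjamini-Hochberg adjustment over the 9 such comparisons over libraries). Without the 2 libraries with long prey alignments the difference was 3.11 points (exact permutation p = 0.0625). Within 100 bp the share averaged 70.4% at the 80 segments, 76.2% at Igkv6-32, Igkv8-30 and Igkv8-34 (exact permutation p = 0.0645) and 62.6% at the distal segments (exact permutation p = 0.0215, adjusted 0.0967). None of the 9 passed an adjusted p of 0.05. These comparisons depend on the segment ends as RefSeq gives them, which were checked against a read RSS in 17 of the 80. Of all 48 Igkv segments with a read RSS, 42 had it directly after the annotated end. The rest were distal and had it 2 bases further on, among them Igkv1-117 (192 junctions) and Igkv9-123 (141). The border was not moved for them, which bears on the 10 bp comparison.

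Most joints used short homology. At least 1 base shared by bait and prey was found at 84.3% of the 547 junctions, with a median of 3 bases among those, while 10.4% had inserted bases and 5.30% were blunt. The shares with homology were 85.7% at Igkv6-32, Igkv8-30 and Igkv8-34 and 84.3% at the distal segments.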

How the data were processed

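Each row of the deposited tables is 1 junction and, per the file headers, carries where the prey aligned, its orientation, the bait alignment and the read itself, so every count here was made from rows. The labels' protocols name MiSeq reads and the assay's standard pipeline. Builds mm10 and GRCm38.p2 and the tool bedtools are listed in the submitters' processing notes. Segment positions and types came from the RefSeq table of GRCm38.p6. The 80 segments, the lists and the tests were chosen with earlier results of these data known. Named segments are the 12 most used, the most used of each family with at least 3 segments, any passing a test, and those at both ends of the stretch.

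Segment strand came from reference bases in the deposited reads: an RSS at most 3 bases from the annotated end, with at least 8 of its 16 heptamer and nonamer bases read and at most 3 mismatches, or else at least 5 shared 12-base words with a ratio of at least 3 between strands. Only aligned bases that matched the reference were used, 591386 in all, so reads could not conflict with one another at a position.

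Junctions were counted as deposited. Junction tables were compared with Fisher's exact test, exact permutation tests over libraries (scipy 1.17.1) and limma 3.58.1 with voom weights (R 4.3.3), with Benjamini-Hochberg adjustment over all Igkv segments tested or over 13 pairs. The per-segment tests were applied to the deposited junctions, and their code was first checked on simulated counts with known changes. Intervals are Clopper-Pearson at 95% and cover counting error only, as molecule identifiers were not used. Read names placed etoposide and untreated replicate 1 in 1 run, untreated replicate 2, IFN and DRB in another, the remaining etoposide libraries in another and both AsiSI libraries in the last. Alternatives covered the distance limit, repeated positions, the denominator, the replicate block, left-out libraries and the limma settings.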

Additional observations from a re-analysis of the deposited data

Results flagged for a closer look

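The same contrast ran in opposite directions in a pair of settings for each of 2 measures. The opposite directions were not tested against each other for either measure, and each contrast rests on single libraries. Each pair of libraries given here was among the 13 compared with Fisher's exact test, and none passed an unadjusted p of 0.05. The share of kappa V junctions at the 80 proximal segments was 11.8% with DRB and etoposide, against 17.8% and 18.6% with etoposide alone, a mean difference of -6.34 percentage points. It was 20.4% with DRB and AsiSI, against 17.5% with AsiSI alone, a difference of 2.89 points.

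The signal-end share was 31.0% with IFN and etoposide, against 39.6% with IFN, a difference of -8.55 percentage points. It was 44.4% with DRB and etoposide (4 of 9), against 25.9% with DRB (7 of 27), a difference of 18.5 points.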

How the results depend on the processing

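Of 72 alternative values, 59 kept the direction and the side of the threshold, or a count within 1.5 times. For the etoposide differences in shares only the direction could change, since permutation of 2 against 2 libraries cannot pass the threshold. A count that stayed at 0 was also scored as kept. The etoposide difference in the 80 segments' share (-1.43 percentage points) became 0.385 with Igkv6-32, Igkv8-30 and Igkv8-34 counted in, and ranged from -3.64 to 0.785 when 1 library at a time was left out, positive without untreated replicate 1. The difference in signal-end share (-0.924) became 3.63 at 1000 bp, 3.67 within 50 bp of the segment end and 4.98 over segments whose RSS was read, an alternative chosen after seeing the data. It ranged from -19.9 to 18 with 1 library left out, turning positive without etoposide replicate 1 (16.8) and without untreated replicate 2 (18). The causes were not tested. The gap in signal-end share to other segments (-4.82) was -10.4 within 50 bp of the segment end (exact permutation p = 0.0313), and -7.19 to -3.48 leaving out 1 library. The excess within 10 bp of the border (4.31, unadjusted p = 0.0156, exact permutation test) was 1.31 within 3 bp (exact permutation p = 0.336), 4.07 within 100 bp (p = 0.102, chosen after seeing the data), 3.11 without the run with long preys (p = 0.0625), and 3.55 to 5.06 leaving out 1 library (p at most 0.0313). The count of pairs with a changed signal-end share was 2 with repeated positions counted once, and 0 otherwise.

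Etoposide and untreated libraries share replicate numbers, and the deviations of same-numbered libraries correlated at r = 0.48 over 17 segments, which share their libraries. With 2 pairs this does not show that they are pairs. With the replicate block the differences were the same, -1.43 and -0.924, and limma again called 0 segments (1 at an unadjusted p under 0.05). Leaving out 1 library at a time limma called 0 to 1, the 1 call, outside the 80 segments, coming without untreated replicate 1. Fisher's exact test on pooled junctions called 0, with 1 at an unadjusted p under 0.05. Depth limits most values here: 11 to 171 junctions per library lay at the 80 segments.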

Other observations

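The 2 libraries with the most junctions at the 80 segments, DRB with AsiSI and AsiSI, gave similar profiles over the 80 segments (Pearson's r = 0.948, Spearman's rho = 0.655 over segments of 1 run, given as a description). Igkv8-27 had 26 and 23 junctions in them, Igkv6-25 had 19 and 15, and Igkv4-51 had 13 and 10. Igkv8-16 had 4 with DRB and AsiSI and 0 with AsiSI, while its near copy Igkv8-23-1 had 8 and 6. All 7 junctions of Igkv3-1, the segment next to the J segments, came from these 2 libraries, 5 with DRB and AsiSI and 2 with AsiSI. The 3 junctions of Igkv8-22, named after its values were seen, all came from untreated replicate 2. Over all libraries, 15 junctions of the 80 segments repeated a position and strand already seen in their library.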
